A study of Mus musculus with 2 samples.

Results

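Aminoacyl-tRNA synthetase genes encode the enzymes that join each amino acid to its tRNA before translation. They were examined in 2 CUT&Tag libraries of Hepa1-6 cells, a mouse hepatoma line. The members were the protein-coding genes of the GRCm38.p6 RefSeq table whose symbol is an amino acid letter followed by ars, with or without a suffix 1, 2, 3 or l2, together with Eprs, Farsa and Farsb. The letter F was not among those used, so Fars2, the mitochondrial enzyme for phenylalanine, was not a member. This gave 37 of 21887 protein-coding genes, of which 21 encode cytosolic and 16 mitochondrial enzymes. The first library came from the ALKBH5-FLAG reaction, on cells that had received ad-FLAG-ALKBH5 adenovirus overnight. ALKBH5 is an enzyme known for removing methyl groups from adenosines in RNA. The second, IgG, used a non-specific antibody, and its protocol names the same virus while its treatment tag names ALKBH6-FLAG. The series text speaks of primary hepatocytes, while each sample carries the label Hepa1-6. ALKBH5 was supplied by a virus, and the sources used here do not name the antibody of that reaction. Each group held 1 library, so no difference between them has a replicate check.

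Cells keep separate sets of synthetases for the cytosol and for mitochondria, and all are encoded in the nucleus. The mitochondrial enzymes carry a 2 at the end of the gene symbol, as does Tarsl2, which was counted as cytosolic. Gars and Kars, for glycine and lysine, serve both compartments and were counted as cytosolic. Several cytosolic enzymes sit in a multisynthetase complex held together by the scaffold proteins Aimp1, Aimp2 and Eef1e1. In mammalian cells short of amino acids, the transcription factor ATF4 is known to raise many cytosolic synthetase genes.

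In CUT&Tag, a transposase held at the antibody cuts and tags nearby DNA, and the deposited tables list the peaks called in each library. The ALKBH5 list held 12333 peaks with a median pileup of 9, and the IgG list 3378 with a median pileup of 5. Pileup counts the fragments that cover the summit, the highest point of the peak. Fold enrichment is the authors' ratio, pileup plus 1 over local background plus 1. No read totals were at hand and the depth is unknown. Of 6 liver genes (Alb, Afp, Ttr, Apoa1, Apoa2 and Hnf4a), Afp and Apoa2 had an ALKBH5 peak and 0 had an IgG peak. Peaks do not measure expression, so this is no check of the cell type.

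The start of 27 members was known from the RefSeq promoter table of GRCm38.p6, which gives 250 bases before and 50 bases after it. Below are 7 of these promoters, 5′ to 3′ on the gene's strand. The promoters of Aars, Gars, Iars, Tars and Yars are shown because they held the sequence of an ATF4-C/EBP element. Tarsl2 and Nars2 are shown because they had the ALKBH5 peaks of highest fold at the start of a cytosolic and of a mitochondrial member. Capitals mark matches, on either strand, to TGATGNAA (the core of elements bound by ATF4 with C/EBP proteins), CACGTG (the E-box, bound by MYC and USF factors) and GGGCGG (the GC box, bound by SP1).
Aars (chr8:111033592-111033891, + strand): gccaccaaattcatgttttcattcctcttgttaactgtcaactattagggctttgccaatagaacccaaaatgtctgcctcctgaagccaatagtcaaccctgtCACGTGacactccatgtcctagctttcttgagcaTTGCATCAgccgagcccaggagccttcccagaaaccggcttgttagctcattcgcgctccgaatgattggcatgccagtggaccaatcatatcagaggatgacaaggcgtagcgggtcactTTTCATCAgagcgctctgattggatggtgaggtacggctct
Gars (chr6:55037751-55038050, + strand): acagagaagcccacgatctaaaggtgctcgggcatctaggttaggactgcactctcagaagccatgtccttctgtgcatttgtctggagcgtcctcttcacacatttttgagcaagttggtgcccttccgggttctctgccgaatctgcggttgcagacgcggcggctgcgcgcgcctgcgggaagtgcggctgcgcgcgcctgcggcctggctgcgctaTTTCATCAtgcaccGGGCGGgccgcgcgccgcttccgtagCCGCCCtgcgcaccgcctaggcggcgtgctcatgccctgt
Iars (chr13:49681880-49682179, + strand): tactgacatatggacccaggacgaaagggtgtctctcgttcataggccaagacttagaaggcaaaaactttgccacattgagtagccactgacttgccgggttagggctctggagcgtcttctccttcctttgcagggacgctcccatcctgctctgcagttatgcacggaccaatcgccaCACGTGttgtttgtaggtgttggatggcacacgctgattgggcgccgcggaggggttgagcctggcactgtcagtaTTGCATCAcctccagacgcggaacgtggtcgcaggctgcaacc
Tars (chr15:11399609-11399908, - strand): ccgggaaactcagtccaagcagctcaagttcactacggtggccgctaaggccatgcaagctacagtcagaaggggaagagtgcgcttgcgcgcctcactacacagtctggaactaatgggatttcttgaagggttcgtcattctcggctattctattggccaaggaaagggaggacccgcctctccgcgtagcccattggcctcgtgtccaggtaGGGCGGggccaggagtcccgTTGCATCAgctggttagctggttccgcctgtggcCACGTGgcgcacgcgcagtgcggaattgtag
Yars (chr4:129189653-129189952, + strand): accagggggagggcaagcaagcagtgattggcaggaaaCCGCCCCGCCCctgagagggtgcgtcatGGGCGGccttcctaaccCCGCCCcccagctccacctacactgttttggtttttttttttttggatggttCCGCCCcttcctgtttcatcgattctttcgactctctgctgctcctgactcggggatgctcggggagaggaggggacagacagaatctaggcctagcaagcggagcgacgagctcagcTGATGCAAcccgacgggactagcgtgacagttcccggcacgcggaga
Tarsl2 (chr7:65644648-65644947, + strand): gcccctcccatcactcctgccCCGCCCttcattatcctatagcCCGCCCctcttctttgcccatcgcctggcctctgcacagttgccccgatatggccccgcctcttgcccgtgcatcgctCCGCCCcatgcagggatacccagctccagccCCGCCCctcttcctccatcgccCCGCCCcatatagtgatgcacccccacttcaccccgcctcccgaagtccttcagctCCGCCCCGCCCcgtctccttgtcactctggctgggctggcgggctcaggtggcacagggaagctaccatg
Nars2 (chr7:96951277-96951576, + strand): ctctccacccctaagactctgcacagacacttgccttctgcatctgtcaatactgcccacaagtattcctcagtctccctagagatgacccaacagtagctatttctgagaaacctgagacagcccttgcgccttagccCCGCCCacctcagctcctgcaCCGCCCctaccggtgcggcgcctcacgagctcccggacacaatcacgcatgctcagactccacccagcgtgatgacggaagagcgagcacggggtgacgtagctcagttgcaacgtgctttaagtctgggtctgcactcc

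Most synthetase genes carried ALKBH5 peaks, and fewer carried IgG peaks. A peak was counted when at least 1 base of it was in the gene or within 1 kb of it. By this count 32 of the 37 members (86.5%, 95% exact interval 71.2 to 95.5) had an ALKBH5 peak, against 39.2% of all protein-coding genes. An IgG peak was present at 10 members (27.0%, 13.8 to 44.1), against 10.8% of all genes. The intervals cover counting error only. The members without an ALKBH5 peak were Cars and Cars2, the cytosolic and mitochondrial enzymes for cysteine, Farsa, a subunit of the enzyme for phenylalanine, Gars, and Pars2, the mitochondrial enzyme for proline. None of these 5 had an IgG peak. With the window widened to 3 kb the ALKBH5 count stayed at 32.

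Of the cytosolic members, 18 of 21 (85.7%, 63.7 to 96.95) had an ALKBH5 peak, and of the mitochondrial members 14 of 16 (87.5%, 61.7 to 98.45). The shares thus differed by far less than their counting intervals. The median gene length was 27792 bp for cytosolic and 25131 bp for mitochondrial members. The best fold of a member with a peak had a median of 6.03 among cytosolic and 6.61 among mitochondrial genes, with 6.31 over both and 6.08 over all protein-coding genes with a peak. The median best pileup was 12 for cytosolic members, 10.5 for mitochondrial members and 10 for all genes with a peak. The peaks at synthetase genes were therefore about as high as those at other genes in the list.

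**Figure D1:**
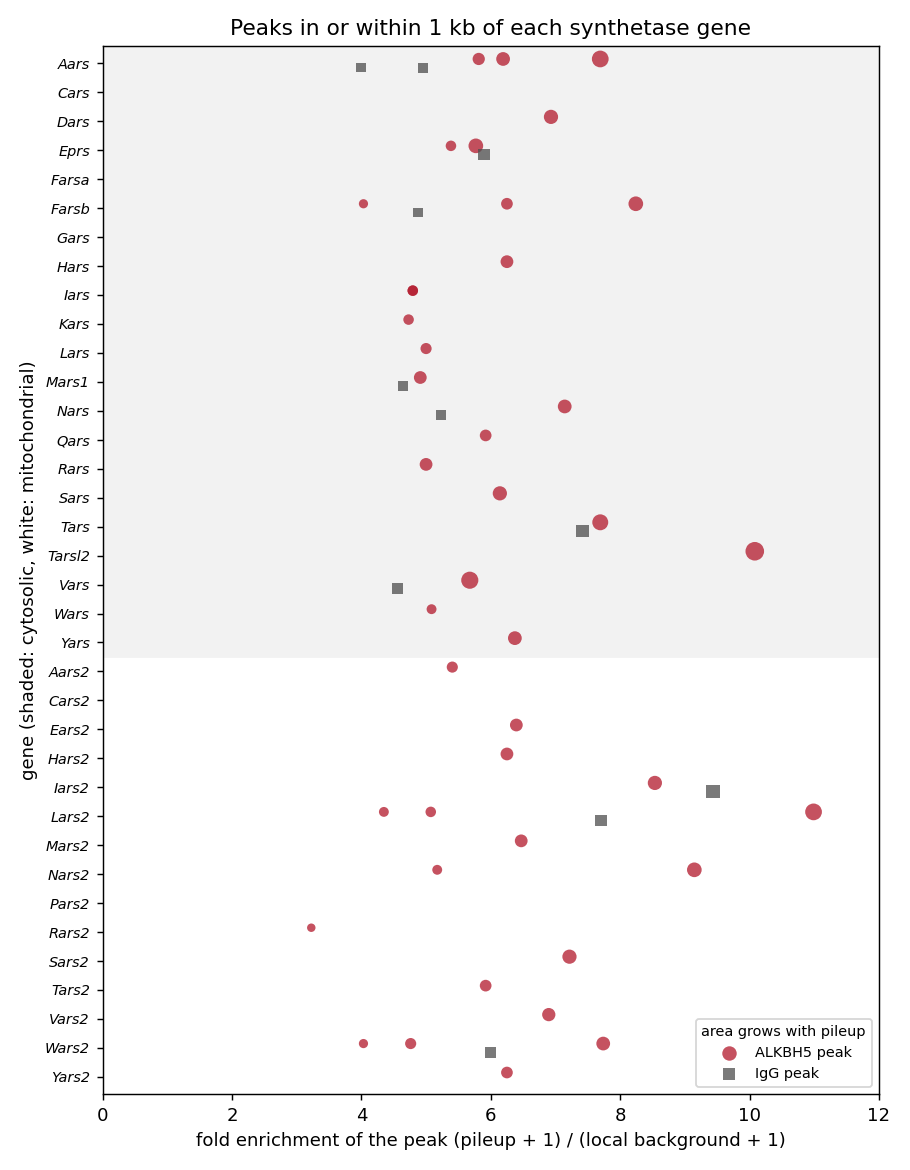
Fold enrichment (horizontal axis, ratio) of each ALKBH5 peak (circles) and IgG peak (squares) in or within 1 kb of each of 36 of the 37 genes, with symbol area growing with the pileup. The ALKBH5 folds run from 3.23 at Rars2 to 10.99 at Lars2, and the rows of Cars, Farsa, Gars, Cars2 and Pars2 are empty.

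Among the cytosolic members, the tallest ALKBH5 peak lay at Tarsl2, which encodes a second threonyl-tRNA synthetase. It spanned chr7:65644622-65645333 and was 24 fragments high, at a fold of 10.1, with no IgG peak. Its summit was 6 bp downstream of the start, inside the promoter shown above, which held 7 GC boxes. Farsb, the other subunit of the phenylalanine enzyme, followed with a fold of 8.24 at a pileup of 14. Aars and Tars, for alanine and threonine, both had a fold of 7.69, with pileups of 19 and 17. At Vars, for valine, the pileup was 20 and the fold 5.68, at a local background of 2.70 fragments, where Tarsl2 had a local background of 1.48. Vars lies within 1 kb of another gene, D17H6S56E-5, and shared its peak with it.

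The enzymes of the multisynthetase complex each had a peak, with low folds in most. All 8 (Dars, Eprs, Iars, Kars, Lars, Mars1, Qars and Rars) had an ALKBH5 peak, and 10 of the 13 cytosolic members outside the complex did. The median best fold was 5.0 in the complex and 6.76 outside it. Eprs, which joins both glutamate and proline to their tRNAs, reached 14 fragments and a fold of 5.77 at its start. Dars, for aspartate, had a fold of 6.93, and Iars, for isoleucine, had a pair of peaks 50 bp upstream and 449 bp downstream of its start, each 6 fragments high at a fold of 4.79. At Kars the only peak lay 374 bp upstream, 6 fragments high, within 1 kb of Terf2ip, and did not reach the promoter sequence of Kars.

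The other cytosolic members lay between these values. Nars, for asparagine, had a fold of 7.14 at a pileup of 12, and Yars, for tyrosine, 6.37 at 12, with its summit 329 bp upstream of the start. Sars, for serine, had 6.14 at a pileup of 13, with its summit 383 bp downstream. In the complex, Qars, for glutamine, had 5.92 at a pileup of 8, while Rars, for arginine, and Lars, for leucine, both had 5.0, at pileups of 10 and 7.

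At a stricter threshold the counts were lower. Of the 8 complex enzymes, only Dars and Eprs kept a peak with a −log10 q of 5 or more. Here q is the authors' adjusted p-value. The complex share was thus 25%, close to the 23.7% of all genes. Outside the complex, 9 of the 13 kept such a peak. The 95% exact intervals, 3.19 to 65.1% in the complex and 38.6 to 90.9% outside it, overlapped, and the difference was not tested. At this threshold 22 of the 37 members had an ALKBH5 peak, against 23.7% of all genes. They were 11 cytosolic (52.4%, 29.8 to 74.3) and 11 mitochondrial members (68.8%, 41.3 to 89.0). With a fold of 5 or more the counts were 15 cytosolic and 13 mitochondrial members, against 31.4% of all genes. The intervals of the cytosolic and mitochondrial shares overlapped widely, and the difference was not tested.

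Among the mitochondrial members, Nars2, for asparagine, had the ALKBH5 peak of highest fold at a gene start. The peak at chr7:96951289-96951852 was 14 fragments high, with a fold of 9.15 and a summit 31 bp upstream of the start. Nars2 had no IgG peak. Wars2, for tryptophan, had a fold of 7.74 with its summit 35 bp upstream, and Sars2, for serine, 7.22 with its summit 271 bp downstream. Mars2, for methionine, is the shortest of the mitochondrial genes at 2882 bp, and its peak 38 bp downstream of the start had a fold of 6.47. Vars2, for valine, had a fold of 6.90 with its summit 48 bp upstream, and Ears2, for glutamate, 6.40 with its summit 174 bp upstream. Yars2 (fold 6.25, 418 bp upstream) and Tars2 (5.92, 207 bp downstream), for tyrosine and threonine, both had a pileup of 8, and neither peak reached the promoter sequence. The weakest was at Rars2, for arginine, at 3 fragments, a fold of 3.23 and a −log10 q of 1.31, close to the limit of the list.

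A cytosolic and a mitochondrial enzyme for the same amino acid could be set side by side in 17 pairs, Eprs and Tars2 each entering with 2 partners. Both genes had an ALKBH5 peak in 15 pairs, where 86.5% of all members had one. For cysteine neither had one, and for proline Eprs had a peak and Pars2 did not. The best fold was higher at the cytosolic gene in 6 pairs and at the mitochondrial gene in 8. Among them were alanine (7.69 at Aars, 5.41 at Aars2), arginine (5.0 at Rars, 3.23 at Rars2) and methionine (4.91 at Mars1, 6.47 at Mars2). For isoleucine and leucine the higher mitochondrial fold came from a peak away from the start, in Iars2 (8.54) and Lars2 (10.99). At its start Lars2 reached 5.07, against 5.0 at Lars. Tars and Tarsl2 were both higher than Tars2, so 2 of the 6 pairs have the same mitochondrial gene. The remaining pair, Hars and Hars2 for histidine, overlap each other by 4 bases and shared 1 ALKBH5 peak (pileup 10, fold 6.25), so the pair is 1 observation. In 0 of the 17 pairs did both genes have an IgG peak. Such peaks were present at only 7 of 21 cytosolic and 3 of 16 mitochondrial members, so few such pairs could occur. The grouping of the enzymes into catalytic classes I and II, which differ in the fold of the active site, gave 16 of 18 class I and 15 of 18 class II genes with an ALKBH5 peak, with Eprs, which holds both, left aside.

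ALKBH5 peaks gathered at gene starts. Of the 27 members whose start was known, 23 had an ALKBH5 peak within 1 kb of it, against 32.9% of the genes with a start in the table. They were 12 of 14 cytosolic and 11 of 13 mitochondrial members. The 4 without one were Gars, Farsa, Cars2 and Iars2. Counting either gene end where the start was not known, 30 of the 32 members with an ALKBH5 peak had one near a start. Of the 8589 protein-coding genes with an ALKBH5 peak, 7010 had one there, so this position was common across the list. IgG peaks lay within 1 kb of the start in 6 of the 27, against 6.59%, at 5 cytosolic members (Aars, Eprs, Farsb, Mars1 and Tars) and 1 mitochondrial member, Wars2. Over all 37 members, with either gene end counted where the start was not known, the IgG counts were 7 of 21 and 1 of 16, against 6.61% of all genes. The 95% exact intervals, 14.6 to 57.0% for cytosolic and 0.158 to 30.2% for mitochondrial members, overlapped.

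The 42 ALKBH5 peaks at synthetase genes comprised 26 near a known start, 6 at an end of a gene whose start was not known, 3 at another end of the annotated gene, and 7 inside genes. Of the 26 peaks near a start, 16 had their summit upstream and 10 downstream. The median distance was 149.5 bp and the largest 605 bp, at the second peak of Wars2. In 10 of the 26 the summit was within 100 bp of the start. At Aars2 the summit was 2 bp from the start and 3315 bp inside the annotated gene, and at Aars the summit of the start peak likewise lay 6038 bp inside the gene. These positions fall outside windows of 1 kb drawn around the gene ends.

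**Figure D2:**
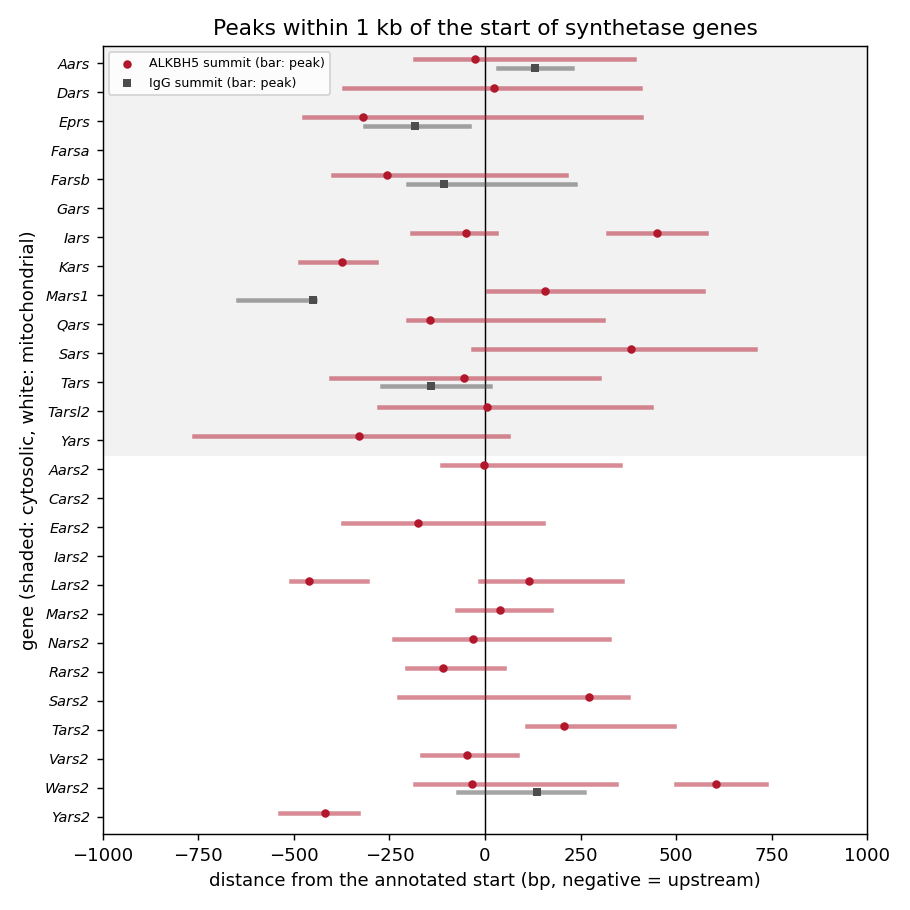
Position of ALKBH5 peaks (red bars, circles at the summits) and IgG peaks (grey bars, squares) within 1 kb of the annotated start of the 27 genes with a known start. The horizontal axis is the distance from the start in bp, negative upstream, and most ALKBH5 bars cross 0.

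Some synthetase peaks also lay beside another gene. Of the 42 ALKBH5 peaks, 11 (26.2%) were within 1 kb of another protein-coding gene, against 14.9% of the 9242 ALKBH5 peaks in the list that lay within 1 kb of any such gene, and these touched 5 cytosolic and 6 mitochondrial members. Sars2 shared its peak with Mrps12, a protein of the mitochondrial ribosome, Rars2 with Orc3, of the origin recognition complex, and Vars2 with Gtf2h4, a subunit of the general transcription factor TFIIH. Ears2 shared its peak with Ubfd1, and Yars with S100pbp. Aars had 2 further ALKBH5 peaks at its outer ends, beside Ddx19b (pileup 9) and Exosc6 (pileup 12). A peak between neighbouring genes cannot be assigned to either from these data.

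Of the 7 peaks inside genes, most were low. Those in Farsb (pileups 8 and 4), Eprs (6), Nars2 (5), Wars2 (4) and Wars (5) had folds of 4.03 to 6.25 and no IgG peak. For Wars, the cytosolic tryptophan enzyme, the inside peak was the only one, 13141 bp from the nearer end of the annotated gene. The start of Wars was not known, so whether this peak lies at a start cannot be told. The inside peak of Iars2, the mitochondrial isoleucine enzyme, stood apart. It spanned chr1:185319210-185319908, its summit was 9733 bp downstream of the start, and its pileup was 13 in ALKBH5 against 12 in IgG. The fold there was 8.54 in ALKBH5 and 9.44 in IgG, the highest of the IgG folds at synthetase genes. Iars2 had no other peak, so its count rests on a position marked in both libraries.

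Lars2, the mitochondrial leucine enzyme, gave the highest ALKBH5 fold of all members, and not at its start. The peak at chr9:123461734-123462268 lay 94964 bp downstream of the start and 784 bp from the other end of the gene. Its pileup was 19 in ALKBH5 and 8 in IgG, and its fold 10.99 in ALKBH5 and 7.71 in IgG. At the start of Lars2 there were 2 low ALKBH5 peaks, with pileups of 6 and 5, folds of 5.07 and 4.35, and no IgG peak. Whether reads at the far end also match other places in the genome was not tested.

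Peaks shared between the libraries were present at 9 members (24.3%), against 7.45% of all genes. In 10 places an ALKBH5 and an IgG peak shared bases, at Aars (at its start and beside Ddx19b), Eprs, Farsb, Nars, Tars, Vars, Iars2, Lars2 and Wars2. Of the ALKBH5 peaks at synthetase genes 23.8% were shared in this way, against 14.9% of the whole list. The IgG peak lay wholly within the ALKBH5 peak in 8 of the 10 pairs, and the summits were 14 to 453 bp apart, with a median of 138 bp. The ALKBH5 pileup was the higher in all 10 pairs and the ALKBH5 fold in 8, the exceptions being Eprs (5.77 in ALKBH5, 5.90 in IgG) and Iars2. At the start of Aars the pileup was 19 in ALKBH5 and 4 in IgG, and at that of Tars 17 in ALKBH5 and 10 in IgG. The libraries were not scaled to each other, so pileups cannot be read as relative occupancy.

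**Figure D3:**
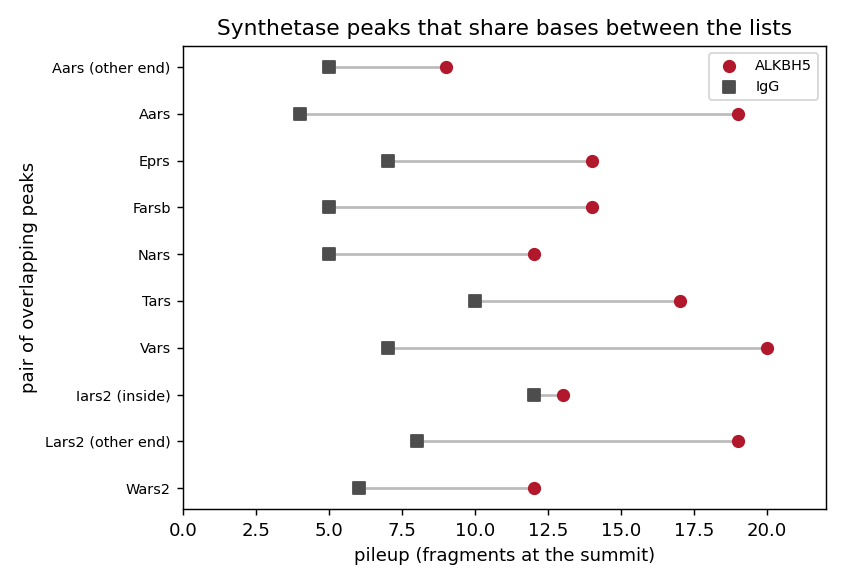
Pileup (fragments at the summit) of the ALKBH5 peak (circles) and the IgG peak (squares) at the 10 places where the lists share bases in or within 1 kb of synthetase genes. The ALKBH5 circle is to the right in each row, by 15 fragments at the start of Aars and by 1 inside Iars2.

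The shared peaks had the higher median pileup. ALKBH5 peaks of synthetase genes that shared bases with IgG had a median pileup of 14, and the others 8. Of the ALKBH5 peaks with a pileup of 3 to 7, 0 of 14 were shared, against 4.71% in the whole list. The counts were 1 of 12 at pileups of 8 to 11, against 10.3%, 8 of 14 at 12 to 19, against 22.7%, and 1 of 2 at 20 to 39, against 51.1%. The tallest peak, at Tarsl2, was not shared, and the shared peak of Aars beside Ddx19b had a pileup of 9. Without the shared peaks, 28 members (15 cytosolic and 13 mitochondrial) still had an ALKBH5 peak, against 33.7% of all genes. The members lost were Nars, Tars, Vars and Iars2. Aars, Eprs and Farsb lost their start peaks and were kept only by peaks away from the start. These were the peak beside Exosc6 (pileup 12) for Aars and inside peaks for Eprs (6) and Farsb (8 and 4). How far IgG peaks at weaker ALKBH5 positions were missed for lack of depth was not tested.

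Of the 11 IgG peaks at synthetase genes, 10 (90.9%) shared bases with an ALKBH5 peak, against 54.6% of the whole IgG list. Only Mars1, for methionine, had an IgG peak that missed its ALKBH5 peak. The IgG summit (pileup 5, fold 4.64) lay 450 bp upstream of the start, and the ALKBH5 summit (pileup 10, fold 4.91) 156 bp downstream. The IgG peaks with a −log10 q of at least 5 marked Tars, Iars2, Lars2 and Wars2, that is 1 of 21 cytosolic and 3 of 16 mitochondrial members, against 2.89% of all genes. ALKBH5 and IgG peaks that both passed this threshold shared bases at these 4 members, against 2.33%. With a fold of 5 or more the IgG list marked 3 cytosolic and 3 mitochondrial members, against 5.52%.

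Base composition was compared over the promoter sequences. Each of the 27 members entered with 1 promoter, whereas the reference counts every listed start, 21263 promoters of 17492 genes. Over the 300 bases, the 27 had a median GC content of 57.7% (48.3 to 67.0%) and a median of 17 CpG dinucleotides, against 56.3% and 13 over 21263 promoters of protein-coding genes. Promoters under an ALKBH5 peak had medians of 63.3% GC and 24 CpG across all genes, and the 15708 promoters without one 53.3% GC and 7 CpG. An ALKBH5 peak touched the promoter in 20 of the 27, against 26.1% of all promoters, and an IgG peak in 5, against 4.49%. Gars, with 64.0% GC and 31 CpG, had no peak, while Aars, with 49.7% GC and 10 CpG, lay under a peak with a pileup of 19. These 2 genes were picked as exceptions after their values were seen.

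The ATF4-C/EBP sequence TGATGNAA occurred in 5 of 14 cytosolic and 0 of 13 mitochondrial promoters, against 3.60% of all promoters and 1.51% of those under an ALKBH5 peak. An ALKBH5 peak covered part of the promoter in 4 of these 5 genes, against 20 of the 27 members and 26.1% of all promoters. The exception was Gars. An IgG peak did so in 2 of the 5, Aars and Tars, against 5 of the 27 members and 4.49% of all promoters. Aars held the sequence at 2 places, beginning 112 bases upstream and 9 bases downstream of its start. In the other 4 it began between 30 bases upstream (Gars) and 7 bases downstream (Iars). The match in Tars began 15 bases upstream, in the stretch covered by both the ALKBH5 and the IgG peak. A match is a run of letters and not a site of binding, and the absence of one says only that these letters were not in the window.

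The E-box CACGTG was found in 4 of 14 cytosolic promoters (Aars, Farsb, Iars and Tars) and 1 of 13 mitochondrial ones (Ears2), or 18.5% of the 27, against 7.84% of all promoters and 11.7% of those under an ALKBH5 peak. All 5 were touched by an ALKBH5 peak, against 20 of the 27 members. An IgG peak touched 3 of them (Aars, Farsb and Tars), against 5 of the 27. The GC box GGGCGG occurred in 9 of 14 cytosolic and 10 of 13 mitochondrial promoters, or 70.4% of the 27, against 46.2% of all promoters and 74.8% of those under an ALKBH5 peak. CCGGAAGT, bound by ETS factors, was found in Farsa, Mars1 and Rars2, or 11.1% of the 27, against 5.15% of all promoters and 11.2% of those under an ALKBH5 peak. No matches of different motifs overlapped in the 27 promoters. These motifs were chosen for their known factors, and the differences between groups were not tested.

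Other genes of tRNA charging were counted in the same way. Of the scaffold proteins of the multisynthetase complex, Aimp2 had an ALKBH5 peak (pileup 20, fold 9.91), as did Aimp1 (pileup 9, fold 6.49), and Eef1e1 had none. Of 10 further genes of charging and proofreading, 6 had an ALKBH5 peak (26.2 to 87.8%) and 0 an IgG peak (up to 30.85%), intervals that include the 39.2% and 10.8% of all genes. Pstk, which prepares the tRNA for selenocysteine, had a fold of 7.89. Trnt1, which adds the CCA end to tRNAs, had 4.29, and Qrsl1 and Gatb, subunits of the mitochondrial enzyme that makes glutaminyl-tRNA, had 4.17 and 5.0. Aarsd1 and Dtd1, which remove wrongly attached amino acids, had 4.08 and 5.08. Dtd2, Gatc, Mtfmt and Sepsecs had none. Pstk alone of these 10 kept a peak at a −log10 q of 5 or more, against 23.7% of all genes.

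Sets of genes with related roles also exceeded the 39.2% of all genes with an ALKBH5 peak. ALKBH5 peaks were present at 41 of 56 translation initiation factor genes (73.2%, 59.7 to 84.2) and at 56 of 78 mitochondrial ribosomal protein genes (71.8%, 60.5 to 81.4). The first set took every symbol that begins with Eif and a digit, so it also holds genes of other roles, such as the kinase gene Eif2ak4. Eif2ak4 and Eif4ebp1 are counted again among the amino acid response genes under Other observations. The interval of the synthetase genes, 71.2 to 95.5%, overlaps both sets. IgG peaks were present at 13 of the 56 (23.2%) and 8 of the 78 (10.3%), against 10.8% of all genes. All genes include those silent in these cells, and expression was not measured, so whether synthetase genes differ from other active genes was not tested.

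**Figure D4:**
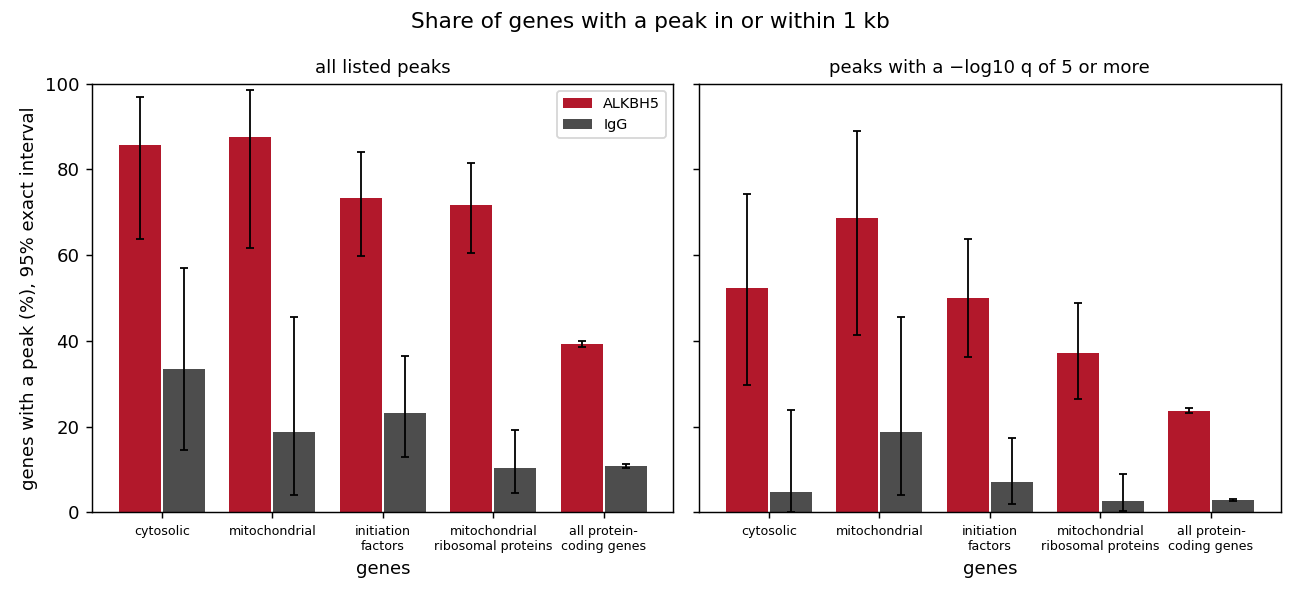
Share of genes (%) with an ALKBH5 peak (red) and an IgG peak (grey) in or within 1 kb, for all listed peaks on the left and for peaks with a −log10 q of 5 or more on the right, with 95% exact binomial intervals as bars. Cytosolic and mitochondrial synthetase genes reach 85.7% and 87.5% for ALKBH5 on the left, against 39.2% of all protein-coding genes.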

How the data were processed

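CUT&Tag was performed on Hepa1-6 cells with 1 ALKBH5-FLAG and 1 IgG library, grouped by the sample titles. Per the submitters' processing notes, MACS2, Bowtie2 2.2.9, R 3.4.1 and SAMtools 1.3.1 were used with GRCm38 (mm10). Their roles and settings are not stated there. The authors deposited peaks per library, not pooled. The deposited pileup is a coverage signal in whole fragments, and the deposited fold enrichment is a ratio to local background, each with 1 added. The authors' columns of −log10 p-values and of −log10 q-values had lost their headers and were recognised by their position among the MACS2 columns. Local background was recovered as pileup plus 1 over fold, minus 1. Depth is unknown.

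Genes and promoter sequences came from RefSeq tables of GRCm38.p6. Of the members, 27 of 37 matched a promoter entry. For the rest either gene end stood for the start. Peaks were shared when they had at least 1 base in common. Shares carry 95% exact (Clopper-Pearson) intervals, computed with SciPy 1.17.1 in Python 3.11.15. With 1 library per group no test was made. Counting was tested on simulated peaks planted at known distances. Alternatives were the −log10 q, the fold, the window, the summit, the start and the overlap rule. All members were counted, and 1 with a peak is not reported here on its own. The members, lists and motifs were chosen with earlier results of these data known.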

Additional observations from a re-analysis of the deposited data

How the results depend on the processing

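No paired analysis was possible because each group held 1 library, and no replicate could be left out. Of 54 alternative counts, 46 stayed within 1.5 times the reported count and 8 did not. With only peaks of a −log10 q of at least 5, the cytosolic enzymes with an ALKBH5 peak numbered 11 instead of 18, those with an IgG peak 1 instead of 7, all members with an IgG peak 4 instead of 10, and members with a shared peak 4 instead of 9. At a fold of 5 or more, the members with an IgG peak numbered 6, of which 3 were cytosolic. Within 1 kb of the gene start, 1 mitochondrial enzyme instead of 3 had an IgG peak, and the count was also 1 without the peaks near the end of Lars2 and inside Iars2, an alternative chosen after seeing the data. The stricter thresholds keep fewer peaks by construction. The counts of 32 members and 14 mitochondrial enzymes with an ALKBH5 peak ran from 22 to 32 and from 11 to 14 over their alternatives. Pileups of 3 to 24 fragments in single libraries limit every value here.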

Other observations

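Genes of the amino acid response, the programme that ATF4 is known to switch on when amino acids are short, were also marked. Of 26 such genes 20 had an ALKBH5 peak (76.9%, 95% exact interval 56.4 to 91.0) and 4 an IgG peak, against 39.2% and 10.8% of all protein-coding genes. Atf4 itself had a pileup of 27 and a fold of 8.59, Trib3, a pseudokinase, 20 and 8.61, and Slc3a2, a subunit of amino acid transporters, 23 and 9.16, each without an IgG peak. Asns, which makes asparagine, had a pileup of 8 and a fold of 5.49. Mthfd2, a mitochondrial folate enzyme, had a fold of 10.1 in ALKBH5 and 5.23 in IgG. At Eif2ak4, the kinase GCN2 that senses uncharged tRNAs, the best fold was 9.28 in ALKBH5 and 11.96 in IgG. Cebpb, Fgf21, Pycr1, Shmt2, Slc7a11 and Vldlr had no peak in either list. Lower folds were found at Ddit3 (pileup 25, fold 5.14), Eif4ebp1 (13 and 4.46) and Sesn2 (10 and 4.20). The median best pileup of the marked genes was 18.5, against 11 for synthetase genes with a peak and 10 for all genes with a peak. Their median best fold was 6.64, against 6.31 and 6.08, so the fold differed little.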
